A study of Homo sapiens with 12 samples.

Results

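The autophagy and lysosome genes described here are 49 named genes, chosen by symbol, of the 63152 gene identifiers in the deposited count table. They cover the TFEB family of transcription factors, the autophagy machinery, lysosomal membrane proteins and enzymes, subunits of the lysosomal proton pump, and the RRAG and FLCN genes of nutrient signalling. All 49 had a row, 46 passed the filter on low counts and were tested, and 3 (*ULK2*, *CTSL* and *CTSZ*) did not pass it.

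Transcripts were counted by QuantSeq, a method that reads the 3' ends of polyadenylated RNA, in OPM2, an established human multiple myeloma cell line. Cells received DMSO vehicle, JQ1 at 250 nM, BKM120 at 1 µM or 18DS at 250 nM for 2 h, with 3 libraries per group that the labels call biological triplicates. JQ1 is an inhibitor of the BET family of bromodomain proteins, which bind acetylated chromatin. BKM120 (buparlisib) is an inhibitor of PI3K, and 18DS is, by the series title, a chimera with activity against PI3K as well as BET proteins. All groups are 1 cell line in culture, no library received JQ1 together with BKM120, and nothing in the labels gives the cultures' passage or day.

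Autophagy delivers cytoplasmic cargo to the lysosome in a double-membraned vesicle, the autophagosome. The ULK1 kinase complex starts it, the class III PI3K complex and the WIPI, ATG2 and ATG9 proteins grow the membrane, and the ATG8 proteins (LC3 and the GABARAPs), once attached to that membrane, recruit receptors such as SQSTM1 that hold the cargo. PI3K signalling through AKT activates the kinase mTORC1 on the lysosome, which restrains ULK1 and keeps TFEB and TFE3 in the cytoplasm. RAG GTPases and FLCN present these factors to mTORC1, and once in the nucleus they bind E-box sequences in the promoters of lysosomal genes. These controls act largely on proteins, through phosphorylation and location, and a transcript count does not read them. Plasma cells and myeloma cells secrete large amounts of protein and are known to rely on autophagy.

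RefSeq start sites (GRCh38.p14, a newer build than the hg19 the submitters name) gave windows of 250 bases before to 50 bases after the start for 40 of the 49 members, 52 windows in all because some genes have more than 1 start. The E-box CACGTG, which reads the same on both strands, lay in 9 of the 52 windows (17.3%), against 7.26% of all 35116 windows and 9.64% of the 12827 windows of tested genes. Its extended form TCACGTGA, which contains the E-box, lay in 4 windows (7.69%) against 0.98% of all windows and 1.81% of those of tested genes. The FOXO site TGTTTAC, searched on both strands, lay in 1 window (1.92%), that of *CTSL*, against 3.42% and 2.62%. The 60-base stretches below are shown because they place that E-box in the 2 called members that had one and in 2 members that no comparison called. They run 5′ to 3′ on the strand of the gene, and capitals mark the E-box in *NEU1* and its extended form in the other 3. The *CTSA* stretch holds a second E-box, left in lower case, that begins at position -42.
CTSA (chr20:45891275-45891334, plus strand): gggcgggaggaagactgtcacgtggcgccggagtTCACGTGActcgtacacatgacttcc
NEU1 (chr6:31862915-31862974, minus strand): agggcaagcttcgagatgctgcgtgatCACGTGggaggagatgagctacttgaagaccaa
LAMP1 (chr13:113297179-113297238, plus strand): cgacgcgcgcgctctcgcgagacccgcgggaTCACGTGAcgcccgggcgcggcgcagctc
ATP6V0D1 (chr16:67481184-67481243, minus strand): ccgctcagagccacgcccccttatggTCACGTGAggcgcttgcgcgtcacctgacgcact
The *CTSA* and *LAMP1* stretches end at position -1 before the start, and their capitals begin at positions -26 and -29. The capitals begin at position -60 in *ATP6V0D1* and at -126 in *NEU1*. Of the 18 windows of members called in any comparison 2 held the E-box, and 7 of the 34 windows of the other members did. The 9 members without a window were *ATP6V1A*, *ATP6V1B2*, *ATP6V1H*, *CTSB*, *HEXA*, *LAMP2*, *RB1CC1*, *RRAGD* and *UVRAG*. The called members *RB1CC1* and *RRAGD* were thus not searched. A match in these letters is a description of the window, not evidence of binding.

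The DMSO libraries held 5940610 to 6594995 counts each, those of JQ1 5501895 to 7692013, those of BKM120 5563788 to 6883854 and those of 18DS 5882214 to 7292895. The 49 members held 0.168% to 0.176% of a library's counts, and the median standard error (SE) of a member's log2 fold change was 0.124, against 0.169 or 0.170 over the 13180 tested genes. Markers of other cell types were at or near 0, since T and NK cell markers summed to at most 1.44 CPM (counts per 1000000 counts of the library), myeloid markers to 3.15 and epithelial and fibroblast markers to 2.75, with *CD3D*, *NKG7*, *FCGR3A* and *COL3A1* at 0. All 10 plasma cell and myeloma markers were expressed, with summed levels of 3445 to 3567 CPM in DMSO, 3339 to 3525 in BKM120, 2933 to 2969 in JQ1 and 2894 to 2948 in 18DS. That sum was thus lower in both groups that received a BET inhibitor, and its part in the results below was not tested. *MYC*, a gene known to respond to BET inhibitors, had log2 fold changes against DMSO of -3.53 with JQ1, 0.81 with BKM120 and -3.51 with 18DS, and *HEXIM1* of 1.66, -0.04 and 1.95. *KLF2* and *IRS2*, FOXO targets under PI3K control, gave 0.25 and 0.35 with JQ1, 2.80 and 1.53 with BKM120, and 1.64 and 1.52 with 18DS. Of the 18DS libraries, replicate 2 had an outlying score on principal component 3 (26.7 against -13.7 and -9.33), and counts without it are given below.

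Calls are at a Benjamini-Hochberg adjusted p under 0.05 in edgeR's quasi-likelihood test over all 13180 tested genes. With JQ1, 3 of the 46 tested members rose (*SQSTM1*, *MAP1LC3B* and *ATG2A*) and 0 fell, against 6.08% of all genes called (2.63% higher and 3.45% lower). In the same test 11 members had an unadjusted p under 0.05 with JQ1, 17 with BKM120 and 14 with 18DS. Of all 13180 tested genes 2360, 3079 and 4423 did. With BKM120, 8 members were called, 5 higher (*ULK1*, *ATG13*, *RB1CC1*, *WIPI2* and *ATG7*) and 3 lower (*ATG101*, *GABARAPL2* and *FLCN*), against 8.21% of all genes (4.07% higher and 4.14% lower). With 18DS, 12 members were called, 8 higher (*SQSTM1*, *ULK1*, *ATG2A*, *MAP1LC3B*, *ATG9A*, *NEU1*, *CTSA* and *GABARAP*) and 4 lower (*ATG101*, *FLCN*, *RRAGD* and *GABARAPL1*), against 21.0% of all genes (9.96% higher and 11.0% lower). Between 18DS and JQ1 at the same dose 1 member, *CTSA*, was called, higher with 18DS, against 4.16% of all genes (2.37% higher and 1.78% lower). The members' median log2 fold change was 0.05 with JQ1, 0.09 with BKM120, 0.07 with 18DS and 0.01 for 18DS against JQ1, and that of all genes was within 0.02 of 0 in each comparison. The libraries of the compared groups did not overlap for 13, 17, 15 and 12 of the 46 members in these comparisons. Among all 13180 tested genes that held for 3340, 3713, 4650 and 3162, so the lack of overlap given for single members below is common.

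Scaling by library totals instead of TMM changed the direction of the balance in the 18DS comparisons, from 8 higher and 4 lower to 3 higher and 4 lower against DMSO, and from 1 higher to 2 lower (*FLCN* and *RRAGC*) against JQ1. With that scaling the JQ1 calls were 3 higher and 2 lower, and the all-gene split was 306 higher and 555 lower for JQ1, 439 and 809 for BKM120, 898 and 2021 for 18DS, and 208 and 414 for 18DS against JQ1. Upper-quartile scaling moved it the other way, to 413 higher and 379 lower for JQ1, 734 and 431 for BKM120, 1675 and 1213 for 18DS, and 372 and 207 for 18DS against JQ1. Single libraries also moved the member counts. The 18DS count was 6 without DMSO replicate 1 and 8 without 18DS replicate 2, where all-gene calls were 1909 and 2085 (2769 as reported). The BKM120 count was 5 without DMSO replicate 1, DMSO replicate 2, BKM120 replicate 1 or BKM120 replicate 3. All-gene calls were then 532, 776, 552 and 482 (1082 as reported). The JQ1 count was 2 without DMSO replicate 3, JQ1 replicate 2 or JQ1 replicate 3, with all-gene calls of 529, 504 and 507 (801 as reported). It was 5, with 1021 all-gene calls, without 18DS replicate 2, a library outside that comparison. The cause of that change was not tested.

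**Figure D1:**
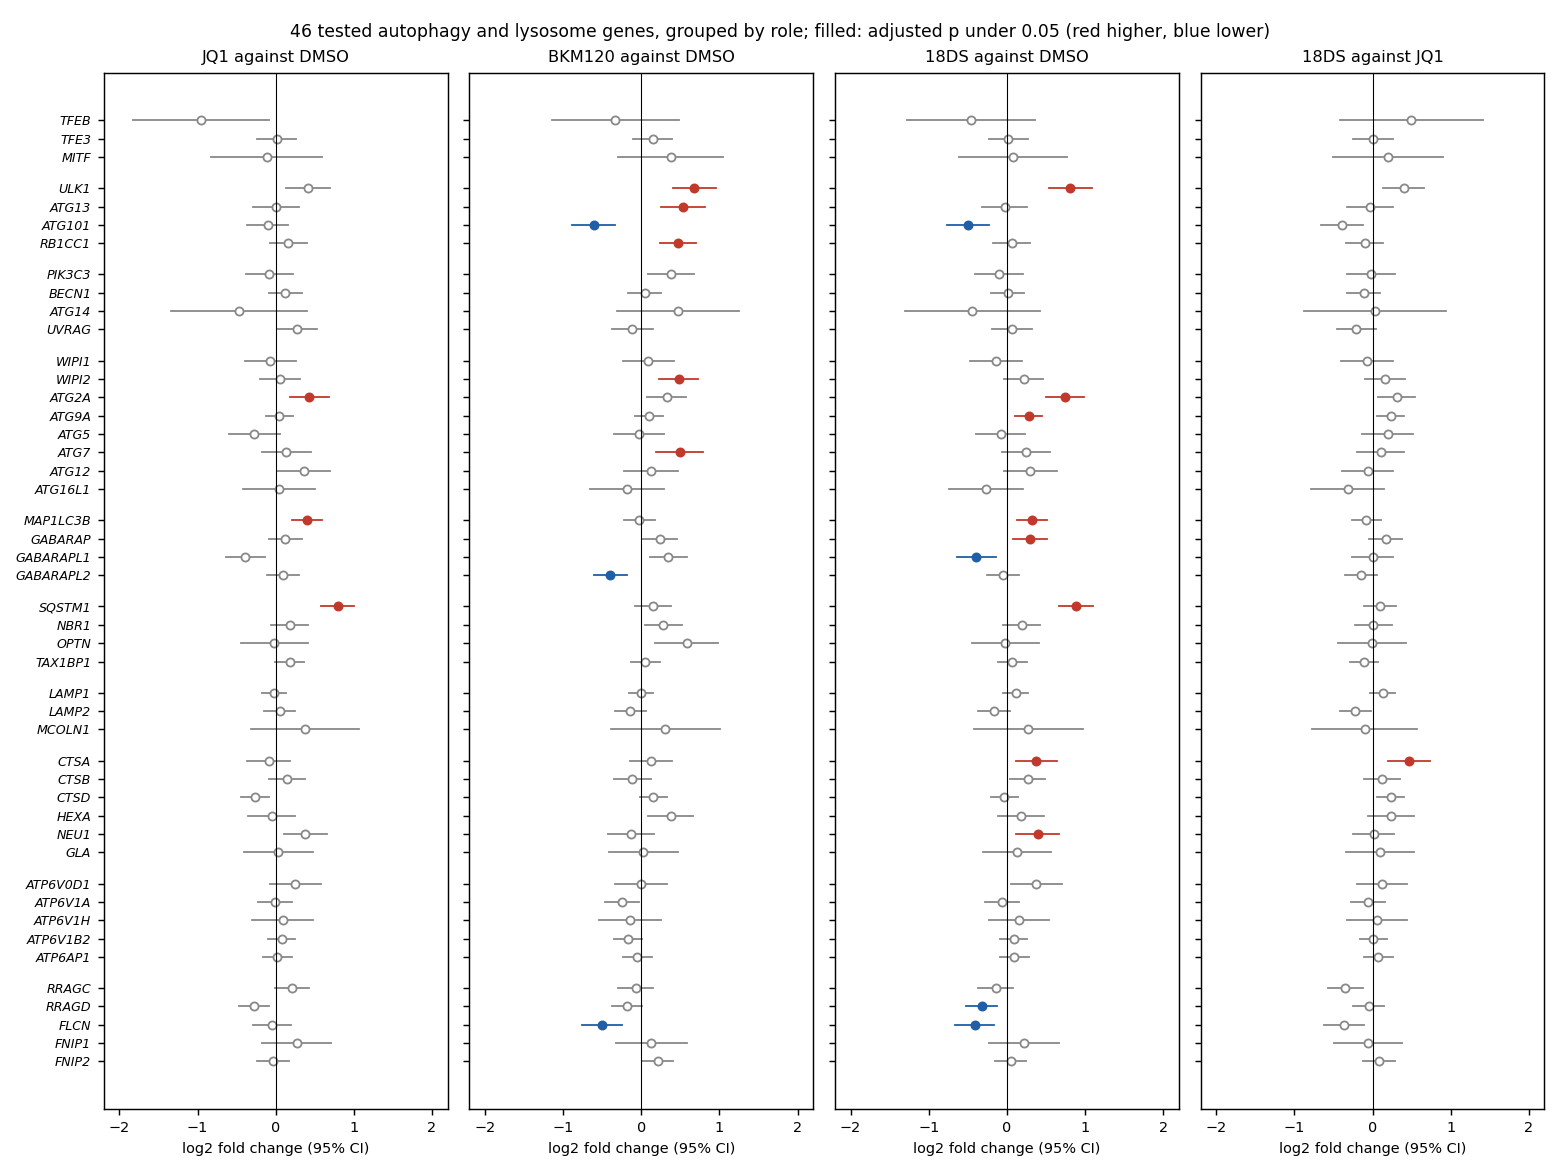
Log2 fold change (x axis) with its 95% confidence interval for the 46 tested members, grouped by role from the TFEB family at the top to the RRAG and FLCN genes at the bottom, in 4 comparisons. Filled points passed adjusted p under 0.05, red higher and blue lower; 3, 8, 12 and 1 members did so from left to right.

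The transcripts of the TFEB family itself were not called in any comparison. *TFEB*, a driver of lysosomal gene expression, was near the limit of counting, at 3.09, 2.25 and 2.00 CPM in DMSO, 1.55, 0.909 and 1.29 in JQ1, 1.29, 1.62 and 3.05 in BKM120, and 1.41, 1.76 and 2.21 in 18DS. The JQ1 libraries lay below the DMSO libraries, but at these counts the log2 difference of -0.96 (SE 0.43) had an adjusted p of 0.216. *TFE3*, its close relative, had 27.1, 27.1 and 27.2 CPM in DMSO, and all groups overlapped, at 24.3, 31.1 and 26.8 in JQ1, 30.3, 26.9 and 33.1 in BKM120, and 24.1, 30.6 and 28.1 in 18DS. Its log2 fold changes were 0.01, 0.15 and 0.02 with an SE of 0.12. *MITF*, the third factor, ranged from 1.895 to 4.67 CPM over the 12 libraries, with overlapping groups and adjusted p-values of 0.908, 0.539 and 0.903 for JQ1, BKM120 and 18DS.

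In the initiation kinase complex, all 4 tested members passed the test with BKM120, 3 of them higher and 1 lower, against 8.21% of all genes. *ULK1*, the kinase itself, was at 13.8, 19.2 and 17.2 CPM in DMSO, 22.0, 22.2 and 22.4 in JQ1, 27.4, 26.3 and 26.4 in BKM120, and 25.4, 29.1 and 33.5 in 18DS. The DMSO libraries were lowest and did not overlap any treated group. *ULK1* rose 1.60-fold with BKM120 (log2 0.68, SE 0.14, adjusted p = 0.00114) and 1.75-fold with 18DS (log2 0.81, SE 0.13, adjusted p = 2.77e-05), and both calls held in all 21 other settings tried. With JQ1 the difference was 0.41 (SE 0.14), which missed the threshold (adjusted p = 0.0690).

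*ATG13*, the adaptor that links ULK1 to the rest of the complex, separated BKM120 from every other group. It was at 28.8, 30.4 and 29.3 CPM in BKM120, against 19.9, 22.2 and 19.0 in DMSO, 20.3, 23.5 and 17.9 in JQ1, and 17.9, 25.1 and 17.2 in 18DS. The rise over DMSO was 1.45-fold (log2 0.54, SE 0.14, adjusted p = 0.0112), and the 18DS difference was -0.03 (SE 0.14, adjusted p = 0.909). *RB1CC1* (FIP200), the scaffold of the complex, was at 42.5, 40.6 and 33.8 CPM in BKM120 and at 31.5, 25.8 and 27.2 in DMSO, without overlap. It rose 1.39-fold (log2 0.47, SE 0.11, adjusted p = 0.00731), while the JQ1 libraries (32.0, 32.2 and 30.4) and the 18DS libraries (30.6, 28.97 and 28.6) overlapped DMSO. The *ATG13* call was lost without DMSO replicate 1 or 3 (adjusted p at most 0.0555), and the *RB1CC1* call without DMSO replicate 2 or BKM120 replicate 1 (at most 0.0682).

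*ATG101*, which binds and stabilises ATG13, fell where its partners rose or did not pass the test. It was at 27.7, 31.6 and 28.99 CPM in DMSO, 30.1, 27.6 and 24.7 in JQ1, 21.1, 20.4 and 16.0 in BKM120, and 18.2, 24.2 and 20.5 in 18DS. Every BKM120 and 18DS library lay below every DMSO and JQ1 library. It fell by 0.61 on the log2 scale with BKM120 (SE 0.13, adjusted p = 0.00283) and by 0.49 with 18DS (SE 0.13, adjusted p = 0.00637), and both calls held in all 21 settings. Its 1831 counts matched the 1811 of the antisense gene *AC025259.1* to within 5% in every library, and since no source used here gives the strand setting of the counting, the 2 cannot be told apart. *ULK2* was at 0 to 0.546 CPM.

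The 4 members of the class III PI3K complex, which makes the lipid mark on the growing membrane, had 0 calls in any comparison. Of all tested genes 6.08% were called with JQ1, 8.21% with BKM120 and 21.0% with 18DS. In edgeR's test 1 of the 4 members had an unadjusted p under 0.05 with JQ1, 1 with BKM120 and 0 with 18DS. Of all 13180 tested genes 2360, 3079 and 4423 did. The catalytic subunit gene *PIK3C3* was at 22.4, 20.5 and 20.1 CPM in BKM120 and 14.6, 15.8 and 18.2 in DMSO. These groups did not overlap, and the log2 difference of 0.38 (SE 0.14) had an adjusted p of 0.0917. *BECN1*, *ATG14* and *UVRAG* had adjusted p-values of at least 0.212 in every comparison.

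Among the 8 genes of membrane growth and conjugation, different members passed with different compounds. *ATG2A*, a lipid transfer protein that feeds the growing membrane, was at 22.2, 23.0 and 18.8 CPM in DMSO, 27.5, 29.6 and 29.3 in JQ1, 25.4, 25.5 and 29.6 in BKM120, and 32.4, 36.9 and 38.1 in 18DS. DMSO was lowest and 18DS highest, and neither overlapped another group. It rose 1.67-fold with 18DS (log2 0.74, SE 0.12, adjusted p = 2.07e-05) and 1.35-fold with JQ1 (log2 0.43, SE 0.12, adjusted p = 0.0265), and the BKM120 difference of 0.33 had an adjusted p of 0.0959. The 18DS call held in all 21 settings, and the JQ1 call was lost with DESeq2's Wald test, with no expression filter, and without DMSO replicate 3, JQ1 replicate 2 or JQ1 replicate 3 (adjusted p at most 0.168).

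*WIPI2*, which reads the class III PI3K lipid and recruits the conjugation machinery, was at 30.4, 34.4 and 26.6 CPM in BKM120, above the 21.5, 20.5 and 24.0 in DMSO, 23.7, 21.5 and 23.0 in JQ1, and 25.8, 26.0 and 24.6 in 18DS. It rose 1.39-fold with BKM120 (log2 0.48, SE 0.12, adjusted p = 0.0115). *ATG7*, the enzyme that activates ATG8 proteins for lipid attachment, was at 22.4, 19.9 and 18.7 CPM in BKM120, against 15.02, 14.5 and 13.8 in DMSO, 15.3, 17.5 and 15.1 in JQ1, and 16.8, 20.5 and 14.2 in 18DS. The BKM120 and DMSO libraries did not overlap, and *ATG7* rose 1.41-fold (log2 0.49, SE 0.15, adjusted p = 0.0324). Both calls were sensitive to single libraries: *WIPI2* was lost without DMSO replicate 1, DMSO replicate 2 or BKM120 replicate 2 (adjusted p at most 0.0703), and *ATG7* without any 1 of the DMSO libraries or BKM120 replicate 1 or 3 (at most 0.164).

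*ATG9A*, a membrane protein that seeds the vesicle, was at 104, 122 and 113 CPM in 18DS, above the 87.3, 91.8 and 99.8 in DMSO. The JQ1 libraries (102, 94.4 and 91.5) and the BKM120 libraries (96.4, 96.4 and 106) overlapped DMSO. The rise with 18DS was 1.21-fold (log2 0.28, SE 0.09, adjusted p = 0.0178), and it missed the threshold with library totals and without DMSO replicate 1, DMSO replicate 2 or 18DS replicate 2 (at most 0.0808). *WIPI1*, *ATG5*, *ATG12* and *ATG16L1* had 0 calls, with log2 fold changes between -0.32 and 0.36.

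The 4 ATG8 genes did not move as a group. *MAP1LC3B*, which encodes LC3B, was at 48.5, 44.8 and 51.0 CPM in DMSO, 58.1, 66.6 and 66.3 in JQ1, 48.9, 47.1 and 45.6 in BKM120, and 63.0, 55.7 and 61.9 in 18DS. The JQ1 and 18DS libraries lay above all DMSO and BKM120 libraries. It rose 1.33-fold with JQ1 (log2 0.41, SE 0.09, adjusted p = 0.00492) and 1.25-fold with 18DS (log2 0.33, SE 0.09, adjusted p = 0.0118), and the BKM120 difference was -0.02 (SE 0.10). Without DMSO replicate 2 the JQ1 and 18DS calls were lost, and the 18DS call was also lost with library totals (adjusted p of 0.0519 for JQ1 and at most 0.0733 for 18DS).

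*GABARAPL1*, a GABARAP relative, had levels that split the treatments in opposite directions around DMSO. It was at 28.9, 25.1 and 31.7 CPM in DMSO, 22.7, 20.4 and 22.1 in JQ1, 34.0, 40.0 and 34.5 in BKM120, and 20.7, 21.1 and 23.5 in 18DS. All JQ1 and 18DS libraries lay below, and all BKM120 libraries above, every DMSO library. Only the 18DS difference was called, a fall by 0.39 on the log2 scale (SE 0.12, adjusted p = 0.0212). The JQ1 difference was -0.39 (SE 0.12, adjusted p = 0.0533) and the BKM120 difference 0.34 (SE 0.12, adjusted p = 0.0614). The 18DS call was lost without DMSO replicate 1, DMSO replicate 3, 18DS replicate 1 or 18DS replicate 2 (at most 0.119), and without 18DS replicate 2 the JQ1 and BKM120 differences passed.

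*GABARAPL2* (GATE-16) was at 61.2, 77.5 and 64.7 CPM in BKM120, below the 98.8, 82.0 and 86.8 in DMSO. It fell by 0.39 on the log2 scale (SE 0.10, adjusted p = 0.0121), while the JQ1 libraries (96.2, 93.5 and 96.6) and the 18DS libraries (88.2, 72.3 and 97.1) overlapped DMSO. That call was lost without DMSO replicate 1, BKM120 replicate 1 or BKM120 replicate 3 (adjusted p at most 0.112). *GABARAP* was at 58.8, 57.9 and 67.9 CPM in 18DS, above the 52.3, 46.1 and 52.2 in DMSO, with 44.2, 57.7 and 61.8 in JQ1 and 59.4, 56.3 and 62.0 in BKM120. Its rise with 18DS was 1.23-fold (log2 0.29, SE 0.11, adjusted p = 0.0433), and the call was lost in 10 of 21 settings. Among these were library totals, DESeq2's Wald test, limma and no expression filter. The others left out any 1 DMSO library, JQ1 replicate 2, BKM120 replicate 1 or 18DS replicate 3. The 4277 counts of *GABARAP* matched the 4238 of the overlapping gene *AC120057.2* to within 5% in every library, so the 2 cannot be told apart.

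Of the cargo receptors, *SQSTM1* (p62), which ties ubiquitinated cargo to LC3 and is itself degraded by autophagy, was the member with the largest fold among JQ1 and 18DS calls. It was at 31.4, 26.9 and 28.5 CPM in DMSO, 48.7, 54.4 and 47.8 in JQ1, 33.2, 32.8 and 30.4 in BKM120, and 47.9, 56.0 and 56.9 in 18DS. The JQ1 and 18DS libraries all lay above all DMSO and BKM120 libraries. *SQSTM1* rose 1.73-fold with JQ1 (log2 0.79, SE 0.11, adjusted p = 2.05e-06) and 1.85-fold with 18DS (log2 0.89, SE 0.11, adjusted p = 8.66e-08), and both calls held in all 21 settings. With BKM120 the difference was 0.15 (SE 0.11, adjusted p = 0.445). *OPTN*, a receptor of damaged mitochondria and bacteria, was at 11.4, 10.04 and 10.8 CPM in BKM120 and 9.43, 6.44 and 5.498 in DMSO, a log2 difference of 0.58 (SE 0.20) with an adjusted p of 0.064. *NBR1* and *TAX1BP1* had 0 calls.

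**Figure D2:**
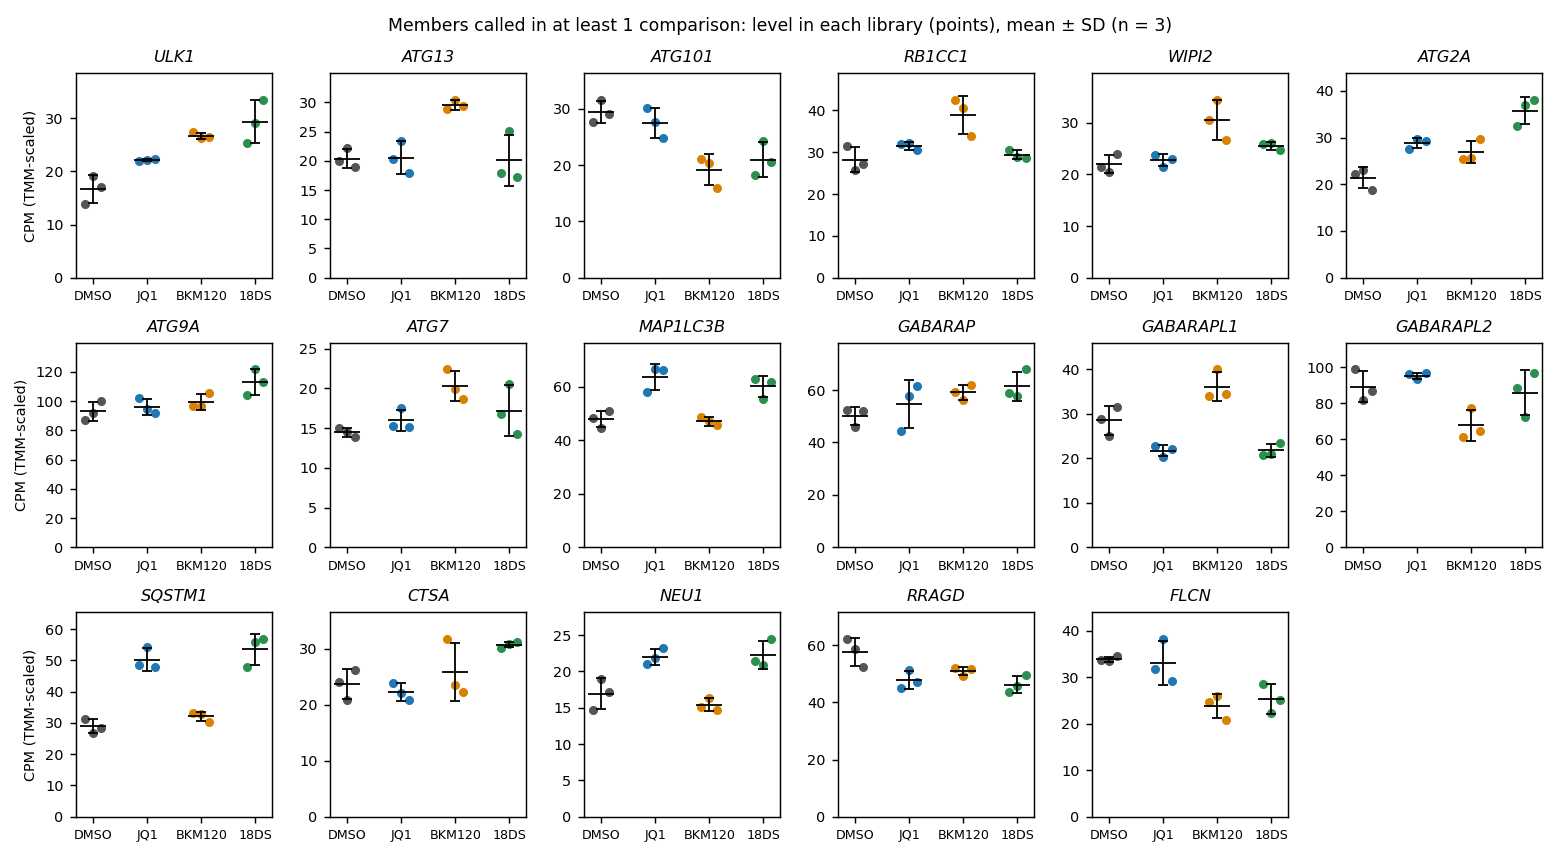
Level in each library (points, CPM on TMM-scaled library sizes, y axis from 0) with the mean and SD (n = 3) in the 4 groups, for the 17 members called in at least 1 comparison. *SQSTM1* and *MAP1LC3B* are high in JQ1 and 18DS, *ATG13* and *RB1CC1* are high in BKM120, and *ATG101* and *FLCN* are low in BKM120 and 18DS.

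The lysosomal membrane proteins and the proton pump had 0 called members in any comparison. Of all genes 6.08% were called with JQ1, 8.21% with BKM120, 21.0% with 18DS and 4.16% for 18DS against JQ1. *LAMP1*, an abundant glycoprotein of the lysosomal membrane, was at 138, 150 and 145 CPM in DMSO, 145, 139 and 143 in JQ1, 152, 144 and 135 in BKM120, and 154, 164 and 149 in 18DS. Its log2 fold changes were -0.02, -0.00 and 0.11 with an SE of 0.08. Each treated group overlapped DMSO, and the 18DS libraries lay above those of JQ1 without a call. Its promoter is among those printed above. Of the pump, *ATP6V1A*, the catalytic subunit, was at 49.2, 45.4 and 46.2 CPM in DMSO, 47.6, 40.7 and 51.1 in JQ1, 35.7, 39.4 and 44.0 in BKM120, and 41.2, 48.3 and 45.6 in 18DS. The BKM120 libraries were lower than DMSO by 0.24 (SE 0.11), which did not pass the test (adjusted p = 0.155). Log2 fold changes of the 5 pump members ranged from -0.01 to 0.25 with JQ1, from -0.24 to -0.00 with BKM120 and from -0.06 to 0.38 with 18DS. The 0.38 was that of *ATP6V0D1* (SE 0.16, adjusted p = 0.0903), whose promoter is also printed above. *CTSA*, which was called with 18DS, differed by the same 0.38 (SE 0.13, adjusted p = 0.0345). In edgeR's test against DMSO 0, 1 and 1 of the 5 pump members had an unadjusted p under 0.05 with JQ1, BKM120 and 18DS, and 0 of the 3 membrane genes did. Of all 13180 tested genes 2360, 3079 and 4423 did.

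Of the 6 tested lysosomal enzymes, 2 rose with 18DS and 0 were called with JQ1 or BKM120, against 21.0%, 6.08% and 8.21% of all genes. In edgeR's test 2 of the 6 had an unadjusted p under 0.05 with JQ1, 1 with BKM120 and 3 with 18DS. Of all 13180 tested genes 2360, 3079 and 4423 did. *CTSA*, the protective protein that stabilises beta-galactosidase and neuraminidase in the lysosome, was at 30.2, 30.9 and 31.1 CPM in 18DS, above the 24.0, 20.8 and 26.2 in DMSO and the 23.9, 22.0 and 20.8 in JQ1, and 31.7, 23.5 and 22.3 in BKM120. It rose 1.30-fold over DMSO (log2 0.38, SE 0.13, adjusted p = 0.0345), a call lost with library totals, with DESeq2's Wald test and without DMSO replicate 1, DMSO replicate 2, 18DS replicate 2 or 18DS replicate 3 (at most 0.167). *NEU1*, the neuraminidase that CTSA protects, was at 14.7, 19.0 and 17.2 CPM in DMSO, 21.0, 21.8 and 23.2 in JQ1, 15.1, 16.4 and 14.7 in BKM120, and 21.4, 20.9 and 24.5 in 18DS. The JQ1 and 18DS libraries lay above the DMSO and BKM120 libraries. *NEU1* rose 1.31-fold with 18DS (log2 0.40, SE 0.14, adjusted p = 0.0338), and the JQ1 difference of 0.38 (SE 0.14) had an adjusted p of 0.0935. Its 18DS call was lost in 7 of the 21 settings (at most 0.168). These were library totals, DESeq2's Wald test, no expression filter and the 2 groups alone. The others left out DMSO replicate 1, DMSO replicate 3 or 18DS replicate 3.

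The other enzymes were below threshold in every comparison. *CTSD*, an aspartic protease, was at 85.1, 100.4 and 98.8 CPM in JQ1 and 103, 115 and 124 in DMSO, a log2 difference of -0.27 (SE 0.09, adjusted p = 0.0614). *CTSB*, a cysteine protease, differed by 0.27 (SE 0.11) with 18DS, with an adjusted p of 0.0883. *HEXA*, a subunit of beta-hexosaminidase, differed by 0.37 (SE 0.14) with BKM120, with an adjusted p of 0.0949. *CTSL* was at 0 to 0.443 CPM and *CTSZ* at 0.129 to 1.23 CPM, too low for a test.

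Of the 5 RRAG and FLCN genes, which couple amino acids and lysosomal status to mTORC1, *FLCN* fell with BKM120 and with 18DS. FLCN, a GTPase activator, acts on RAGC and RAGD so that TFEB is held at the lysosome. Its transcript was at 33.6, 33.5 and 34.5 CPM in DMSO, 31.6, 38.2 and 29.1 in JQ1, 24.6, 25.8 and 20.8 in BKM120, and 28.6, 22.3 and 25.1 in 18DS. The BKM120 and 18DS libraries lay below all DMSO libraries and all JQ1 libraries. *FLCN* fell by 0.50 on the log2 scale with BKM120 (SE 0.12, adjusted p = 0.00862), which was lost without BKM120 replicate 3 (0.0796), and by 0.41 with 18DS (SE 0.12, adjusted p = 0.0150), which was lost without 18DS replicate 2 or 3 (at most 0.0830).

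*RRAGD*, a RAG GTPase and a known TFEB target, was at 62.2, 58.6 and 52.5 CPM in DMSO, 45.1, 51.3 and 47.0 in JQ1, 52.0, 49.3 and 51.6 in BKM120, and 43.6, 45.7 and 49.4 in 18DS. Every treated library lay below every DMSO library. Only the fall with 18DS, by 0.32 on the log2 scale (SE 0.10, adjusted p = 0.0139), passed the test, and it did not without DMSO replicate 1 or 18DS replicate 1 (at most 0.116). The differences with JQ1 and BKM120 were -0.28 and -0.18 (adjusted p-values of 0.0841 and 0.248). *RRAGC*, *FNIP1* and *FNIP2* had 0 calls. Of the 5 genes 0 were called with JQ1, 1 with BKM120, 2 with 18DS and 0 for 18DS against JQ1. The shares of all genes called were 6.08%, 8.21%, 21.0% and 4.16%. In these bulk libraries, fewer cells carrying a transcript and less of it per cell cannot be told apart.

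JQ1 and 18DS were given at the same 250 nM for the same 2 h, so the members can be compared between them directly. *CTSA* was the single call, 1.38-fold higher with 18DS (log2 0.47, SE 0.13, 95% interval 0.20 to 0.73, adjusted p = 0.035), and in all 3 18DS libraries it exceeded all 3 JQ1 libraries. That call was lost, leaving 0, without JQ1 replicate 2, JQ1 replicate 3, 18DS replicate 2 or 18DS replicate 3, and lost with library totals (adjusted p at most 0.157). Without each of those 4 libraries in turn all-gene calls were 123, 105, 215 and 159 (548 as reported). Without 18DS replicate 1 the member count was 6, and without DMSO replicate 1 it was 2, with 1027 and 752 all-gene calls. *SQSTM1* differed by 0.09 (interval -0.11 to 0.30, adjusted p = 0.67), *MAP1LC3B* by -0.08 (-0.27 to 0.11) and *GABARAPL1* by -0.00 (-0.26 to 0.26), so that differences of this size in either direction remain possible. *ULK1* was higher with 18DS by 0.40 (0.14 to 0.66, adjusted p = 0.0686) and *ATG2A* by 0.31 (0.07 to 0.54, adjusted p = 0.121), and neither passed the threshold. *FLCN* was lower by 0.37 (log2 difference -0.37, interval -0.62 to -0.11, adjusted p = 0.0845), *ATG101* had a difference of -0.39 (adjusted p = 0.0859) and *RRAGC* one of -0.35 (adjusted p = 0.0593). In all, 9 of 46 members had an unadjusted p under 0.05 in edgeR's test of this comparison, against 2540 of all 13180 tested genes.

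BKM120 was given at 1 µM and 18DS at 250 nM, so their values stand side by side and no test was made between them, and both are set against the same DMSO libraries. Log2 fold changes against DMSO with BKM120 and with 18DS were 0.68 and 0.81 for *ULK1*, -0.61 and -0.49 for *ATG101* and -0.50 and -0.41 for *FLCN*, all called. They were 0.54 and -0.03 for *ATG13*, 0.47 and 0.06 for *RB1CC1*, 0.48 and 0.21 for *WIPI2*, 0.49 and 0.24 for *ATG7* and -0.39 and -0.05 for *GABARAPL2*, called with BKM120 alone. For *GABARAPL1* they were 0.34 and -0.39.

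Genes of the same pathways outside the 49 were counted from 4 further lists. Of 45 other autophagy genes 37 were tested, of which 0 rose and 1 fell with JQ1, 1 rose and 1 fell with BKM120, and 3 rose and 4 fell with 18DS, against the 6.08%, 8.21% and 21.0% of all genes called. *TP53INP1*, a stress protein that binds ATG8 proteins, was at 10.3, 7.73 and 8.66 CPM in DMSO, 8.60, 6.37 and 6.09 in JQ1, 35.9, 42.1 and 39.5 in BKM120, and 16.5, 11.1 and 14.7 in 18DS. BKM120 was highest, without overlap with any group, and 18DS lay above DMSO and JQ1. *TP53INP1* rose with BKM120 by 2.13 on the log2 scale (SE 0.16, adjusted p = 8.62e-12), with 18DS by 0.67 (SE 0.17, adjusted p = 0.00525), and was higher with 18DS than with JQ1 by 1.03 (SE 0.18, adjusted p = 0.00114). *TECPR1*, a tether between autophagosome and lysosome, fell by 0.84 with JQ1 (SE 0.12, adjusted p = 4.24e-06) and by 1.07 with 18DS (SE 0.12, adjusted p = 2.52e-08), from 35.5, 41.6 and 37.7 CPM in DMSO to 20.1, 24.0 and 20.1 in JQ1 and 19.5, 17.7 and 17.2 in 18DS. *ATG16L2*, a relative of ATG16L1, rose by 0.53 with 18DS (SE 0.11), and *FUNDC1*, a mitophagy receptor, fell by 0.79 (SE 0.18). The remaining calls, named after their values were seen, were *EI24* (-0.28 with BKM120, -0.30 with 18DS and -0.34 for 18DS against JQ1), and *FYCO1* (-1.49) and *NRBF2* (0.52) with 18DS. *FYCO1* had few counts, at 4.12, 5.32 and 3.00 CPM in DMSO, 1.55, 1.82 and 2.07 in JQ1, and 1.83, 1.58 and 0.95 in 18DS. *NRBF2* was at 10.6, 9.34 and 11.7 CPM in DMSO, 16.3, 15.3 and 12.6 in JQ1, and 15.5, 13.9 and 15.9 in 18DS. Both thus moved the same way with JQ1, without a call. Without 18DS replicate 2 the 18DS calls of this list were 3 higher and 3 lower, and the BKM120 calls 1 higher and 5 lower. Over all genes they were then 957 higher and 1128 lower with 18DS, and 731 and 833 with BKM120. The balance of this list also moved with the scaling, to 6 higher and 4 lower with 18DS under upper-quartile factors and to 1 higher and 4 lower with BKM120 under library totals.

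Of 68 other lysosome genes 56 were tested, with 2 higher and 1 lower with JQ1, 1 and 1 with BKM120, and 3 and 0 with 18DS, the last turning to 1 higher and 2 lower when library totals were used. The shares of all genes called were 6.08%, 8.21% and 21.0%. *CTSK*, a cysteine protease with few counts here, was at 0.736, 1.45 and 2.50 CPM in DMSO, 3.27, 5.46 and 4.79 in JQ1 and 4.79, 7.02 and 2.53 in 18DS. The differences were 1.54 with JQ1 (SE 0.39, adjusted p = 0.0104) and 1.61 with 18DS (SE 0.39, adjusted p = 0.00237). The DMSO libraries of *CTSK* alone would not have passed the filter on low counts, so its place in the test rests on other groups. *NPC1*, which exports cholesterol from the lysosome, rose by 0.56 with JQ1 (SE 0.14, adjusted p = 0.0111). *MAN2B1*, an alpha-mannosidase, rose by 0.39 with 18DS (SE 0.12, adjusted p = 0.0194), and *CD63*, a tetraspanin of lysosomes and exosomes, fell by 0.33 with BKM120 (SE 0.09, adjusted p = 0.0208). Also called, and named after their values were seen, were *NAGPA* (-0.59 with JQ1), *NAGLU* (0.70 with BKM120) and *SMPD1* (0.57 with 18DS). For 18DS against JQ1 edgeR called 0 of this list (4.16% of all genes). At an unadjusted p under 0.05 in that test were 7 of this list and 2540 of all 13180 tested genes. Without 18DS replicate 2, 2 of this list were higher, and over all genes 130 were higher and 85 lower.

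Of 26 other proton pump genes 21 were tested, and edgeR called 0 with JQ1, 0 with BKM120 (2 lower with library totals) and 4 with 18DS. Of all genes 6.08%, 8.21% and 21.0% were called. At an unadjusted p under 0.05 were 1 of this list with JQ1 and 5 with BKM120, against 2360 and 3079 of all 13180 tested genes. *ATP6V0C*, which forms the ring of the pump in the membrane, rose with 18DS by 0.34 (SE 0.07, adjusted p = 0.000654), from 446, 466 and 451 CPM in DMSO to 544, 646 and 539. *TCIRG1*, a membrane subunit, rose by 0.70 (SE 0.18, adjusted p = 0.00432) and was higher than with JQ1 by 0.59 (SE 0.18, adjusted p = 0.0487). *ATP6AP2*, an accessory subunit, rose by 0.23 (SE 0.09, adjusted p = 0.0483) and *VMA21*, an assembly factor, fell by 0.25 (SE 0.09, adjusted p = 0.0401). With library totals the 18DS calls of this list were 2 higher and 2 lower. Without 18DS replicate 2 they were 2 higher and 0 lower, and 0 were called for 18DS against JQ1. All-gene calls then went from 2769 to 2085 against DMSO and from 548 (4.16%) to 215 against JQ1.

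Of 39 other genes of mTORC1 and nutrient sensing 36 were tested, with 3 higher and 0 lower with JQ1, 3 and 1 with BKM120, and 8 and 2 with 18DS, where 6.08%, 8.21% and 21.0% of all tested genes were called. *SESN2*, a stress-induced inhibitor of mTORC1 signalling, was at 13.0, 14.8 and 13.3 CPM in DMSO, 38.7, 34.6 and 41.0 in JQ1, 15.8, 13.7 and 16.9 in BKM120, and 51.0, 47.9 and 49.6 in 18DS. The JQ1 and 18DS libraries lay far above the other groups, and 18DS above JQ1. *SESN2* rose by 1.48 with JQ1 (SE 0.12, adjusted p = 5.03e-11) and by 1.85 with 18DS (SE 0.12, adjusted p = 3.48e-14), and was 0.37 higher with 18DS than with JQ1 (SE 0.11, adjusted p = 0.0397). Its relative *SESN3*, at 0.147 to 4.11 CPM, was near the limit of counting. Its differences were 2.32 with JQ1 (SE 0.58) and 2.80 with 18DS (SE 0.55). *SESN3* was too low in DMSO to pass the filter on low counts there. Its entry into the test thus depended on groups where it was higher, and these values are no independent support for a rise. *BORCS6*, a part of the complex that positions lysosomes, rose by 0.63 with JQ1 and by 0.58 with 18DS (SE 0.12 for both).

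*RICTOR*, which defines the second mTOR complex, was at 31.4, 29.4 and 27.5 CPM in BKM120, above the 16.8, 17.7 and 15.3 in DMSO, 15.7, 15.6 and 15.9 in JQ1, and 16.9, 18.4 and 21.2 in 18DS. It rose by 0.82 with BKM120 (SE 0.13, adjusted p = 4.98e-05). Among further calls of this list, named after their values were seen, *AKT1S1* (PRAS40, an mTORC1 inhibitor) rose by 0.63 with BKM120, by 0.55 with 18DS and by 0.92 for 18DS against JQ1. *SESN1* rose by 0.49 and *SEH1L* fell by 0.36 with BKM120, and *NPRL3* was higher with 18DS than with JQ1 by 0.46. With 18DS, *DEPTOR*, another mTOR inhibitor, and *LAMTOR1*, a lysosomal anchor of the RAG GTPases, fell by 0.55 and 0.25, and *LAMTOR2*, *NPRL3*, *TSC2* and *RPTOR* rose by 0.30, 0.42, 0.57 and 0.72. Without 18DS replicate 2 the 18DS calls of this list were 5 higher and 1 lower, and those for 18DS against JQ1 went from 3 higher to 1 higher. All-gene calls then went from 2769 to 2085 against DMSO and from 548 (4.16%) to 215 against JQ1.

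**Figure D3:**
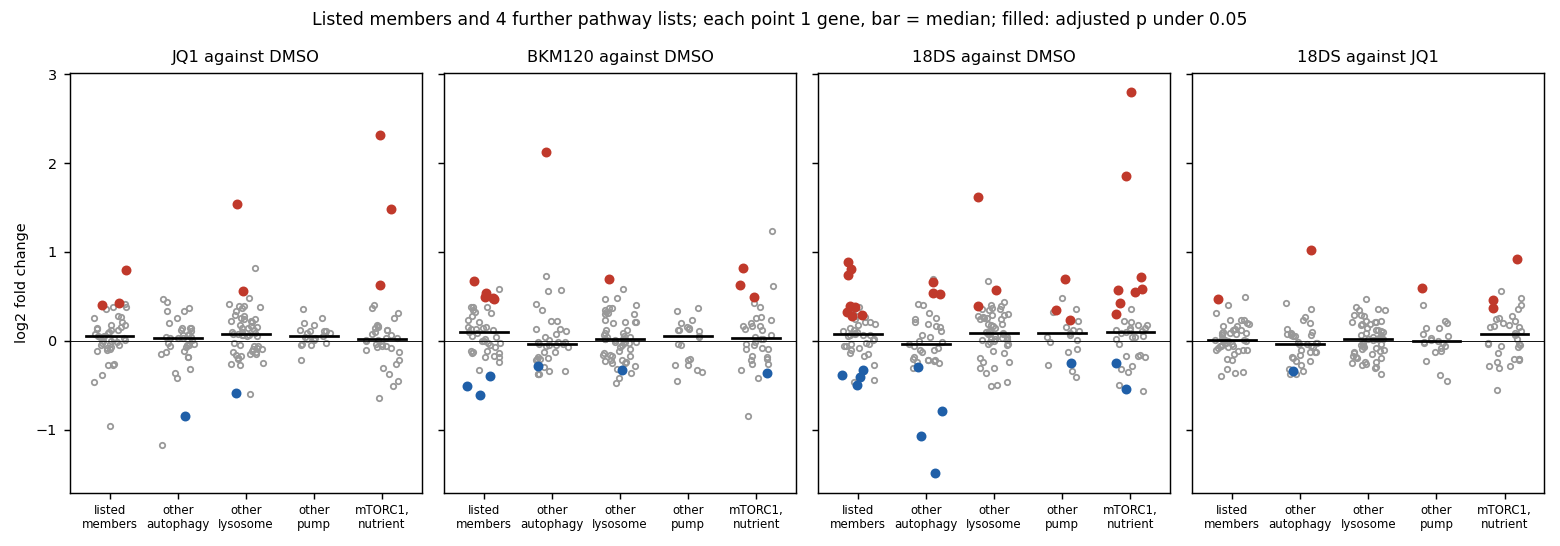
Log2 fold change (y axis) of each tested gene in the 49-gene list and in 4 further pathway lists, in 4 comparisons; bars are medians and filled points passed adjusted p under 0.05, red higher and blue lower. Medians sit close to 0 in every list. Single genes lie far from it, such as *TP53INP1* with BKM120 (2.13) and *SESN3* with 18DS (2.80, at few counts).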

How the data were processed

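The values used are whole-number counts per Ensembl gene, 1 column per library, which the authors deposited without normalization. Per the submitters' processing notes the tools included HISAT2 2.1.0 on build hg19, featureCounts of Subread, SAMtools 1.9, cutadapt 1.7, bcl2fastq 2.17.1.14, limma and FastQC 0.11.5. Reads were 75-base single-end, per the labels' protocols. The strand setting, annotation release and treatment of multi-mapping reads were not given in the sources used here. A table of gene names gave symbols for 51662 of 63152 identifiers.

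Counts were filtered with filterByExpr (minimum count 10, minimum total 15), scaled by TMM and fitted with 1 robust edgeR (4.0.16, R 4.3.3) quasi-likelihood model over 12 libraries (common biological coefficient of variation 0.0862, 8 residual degrees of freedom). Adjusted p-values are Benjamini-Hochberg over 13180 genes per contrast. Intervals are 95%, and CPM uses TMM-scaled library sizes for genes and total counts for summed markers. The test was checked on simulated data. DESeq2 1.42.0 and limma 3.58.1 gave alternatives, and Python 3.11.15 the figures. Identifiers within 5% of a member's counts in every library were looked for.

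Members and lists were chosen with earlier results of these data known. Library values are printed for each called member and for *TFEB*, *TFE3*, *MITF*, *SQSTM1*, *MAP1LC3B*, *ULK1*, *GABARAPL1*, *LAMP1* and *ATP6V1A*, and up to 4 genes with the smallest adjusted p are named per further list. Other members named with values were singled out after these were seen.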

Additional observations from a re-analysis of the deposited data

How the results depend on the processing

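Of the 24 called member results, 7 held in all 21 other settings (*ATG101* and *ULK1* with BKM120 and with 18DS, *SQSTM1* with JQ1 and with 18DS, *ATG2A* with 18DS), and 0 changed sign. Of 160 uncalled results 11 passed in at least 1 setting. With library totals the called members numbered 5 for JQ1, 7 for 18DS and 2 for 18DS against JQ1, and with the 2 groups alone 6 for JQ1. Leaving out 1 library at a time gave 2 to 5 for JQ1, 5 to 9 for BKM120, 6 to 12 for 18DS and 0 to 6 for 18DS against JQ1. Over all settings the called genes of the whole table numbered 504 to 1101 for JQ1 (801 as reported), 482 to 1564 for BKM120 (1082), 1909 to 3026 for 18DS (2769) and 105 to 1027 for 18DS against JQ1 (548). Where a group was left with 2 libraries the fit still pooled the spread of all groups. The cause of these changes was not tested. Labels give no batch that a replicate number marks, and same-numbered libraries had correlations of deviations from -0.128 to 0.0919 over 18 pairs of libraries. A replicate block called 3 members for JQ1, 8 for BKM120, 12 for 18DS and 1 for 18DS against JQ1. Depth limits *TFEB*, *MITF*, *ATG14* and *MCOLN1*, at under 5 CPM in every library. Counts of the further lists without 18DS replicate 2 were chosen after seeing the data.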
